A study of Mus musculus with 6 samples.

Results

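The genes described here are 35 mouse genes that carry out fatty acid oxidation or are known targets of the nuclear receptor PPAR alpha. They were listed by name, and each was read from the brightest of its probes over 6 arrays. All 35 were on the array and were tested among 27399 features, of which 15856 carried a gene symbol. Every member but Cyp4a14 was well above background on all 6 arrays. Cyp4a14 was well above background on 3 arrays, and it passed the filter on dim probes only through the tumours labelled with CLC, where it was brightest, so its direction was favoured by that filter.

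RNA came from frozen mouse hepatocellular carcinomas (HCC) of strain C57BL/6, with 2 tumours in each of 3 groups. Albumin-derived HCC without CLC came from Alb-AID mice at 90 weeks, for which the labels give neither a special diet nor tamoxifen. The other 4 tumours, Epcam-derived HCC with CLC or without it, came from Epcam-AID mice that received tamoxifen and a diet with 0.1% DDC for 8 months. DDC is a chemical that injures bile ducts and provokes a ductular reaction. The series calls the Epcam-derived tumours derived from ductular progenitor cells, whereas Albumin marks hepatocytes. Below, the 2 Epcam-derived groups are called CLC-bearing and CLC-free. The labels expand neither CLC nor AID, and they give no sex, no age for the Epcam-AID mice and no statement that the 2 tumours of a group came from separate mice. The p-values therefore measure the spread between these tumours only. Line, diet and tamoxifen differ together between the Albumin-derived and the Epcam-derived tumours and cannot be told apart. Any difference in age, which the labels give for the Alb-AID mice only, cannot be told apart from them either. Signals of Y chromosome genes, given below, were also uneven between these groups.

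Fatty acid oxidation shortens acyl-CoA step by step, mainly in mitochondria and, for very long chains, in peroxisomes, and the liver turns much of the product into ketone bodies during fasting. PPAR alpha is the transcription factor that fatty acids and fibrate drugs activate in hepatocytes. It pairs with a retinoid X receptor on direct repeats in DNA and switches on the carnitine shuttle, both oxidation systems, the omega-hydroxylases of the Cyp4a family, acyl-CoA thioesterases and hormones such as Fgf21.

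The processed signal at the 75th percentile of an array lay between 285 and 488, and 52.0% to 64.6% of probes were well above background. Of the hepatocyte markers, 11 of 11 on the array were well above background in all 6 tumours, and their summed signal was 12.54 and 12.42 (log2) in the Albumin-derived pair, 11.86 and 11.43 in the CLC-free pair and 11.87 and 11.43 in the CLC-bearing pair. Hepatocyte transcripts were thus measured in every tumour. Signals are given below as log2 of the processed intensity minus the log2 of the array's 75th percentile, so they show how 1 probe differs between tumours and not which gene is the more abundant. In bulk tumour RNA, fewer cells of a type and less RNA per cell cannot be told apart. Both Albumin-derived tumours and CLC-bearing replicate 1 were on slide 1, and the other 3 tumours on slide 2.

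In no comparison did a member pass the test (limma, adjusted p under 0.05 over all features). The share of all features that passed was 0% for CLC-bearing against CLC-free, 0.245% for CLC-free against Albumin-derived, 0.062% for CLC-bearing against Albumin-derived, and 0.814% between all Epcam-derived and the Albumin-derived tumours. The smallest adjusted p of a member was 0.0822, for Ppargc1a in the last of these. An unadjusted p under 0.05 was found for 1, 5, 9 and 9 members in the same 4 comparisons, against 3.47%, 20%, 16% and 21.7% of all features. With 2 arrays a group, only large differences could pass. The comparisons share arrays and are not independent of each other.

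The members varied most from tumour to tumour, and the levels of 2 tumours stood out. CLC-bearing replicate 1 held the highest of the 6 signals for 22 of the 35 genes, against 13.3% of all features. Albumin-derived replicate 2 held the lowest for 23 of the 35, against 19.1% of all features. Within the group with CLC, replicate 1 exceeded replicate 2 for 31 members. The median gap over all 35 was 0.85 (log2), where all features had a median of -0.02. Within the Albumin-derived group, replicate 1 exceeded replicate 2 for 33 members, and the median gap over all 35 was 0.66, against 0.00 for all features. The CLC-free tumours were less one-sided, with 12 members higher in replicate 1 and 23 higher in replicate 2. The median size of the gap between replicates was 0.66, 0.54 and 0.85 for the members in the 3 groups, and 0.34, 0.38 and 0.39 for all features.

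**Figure D1:**
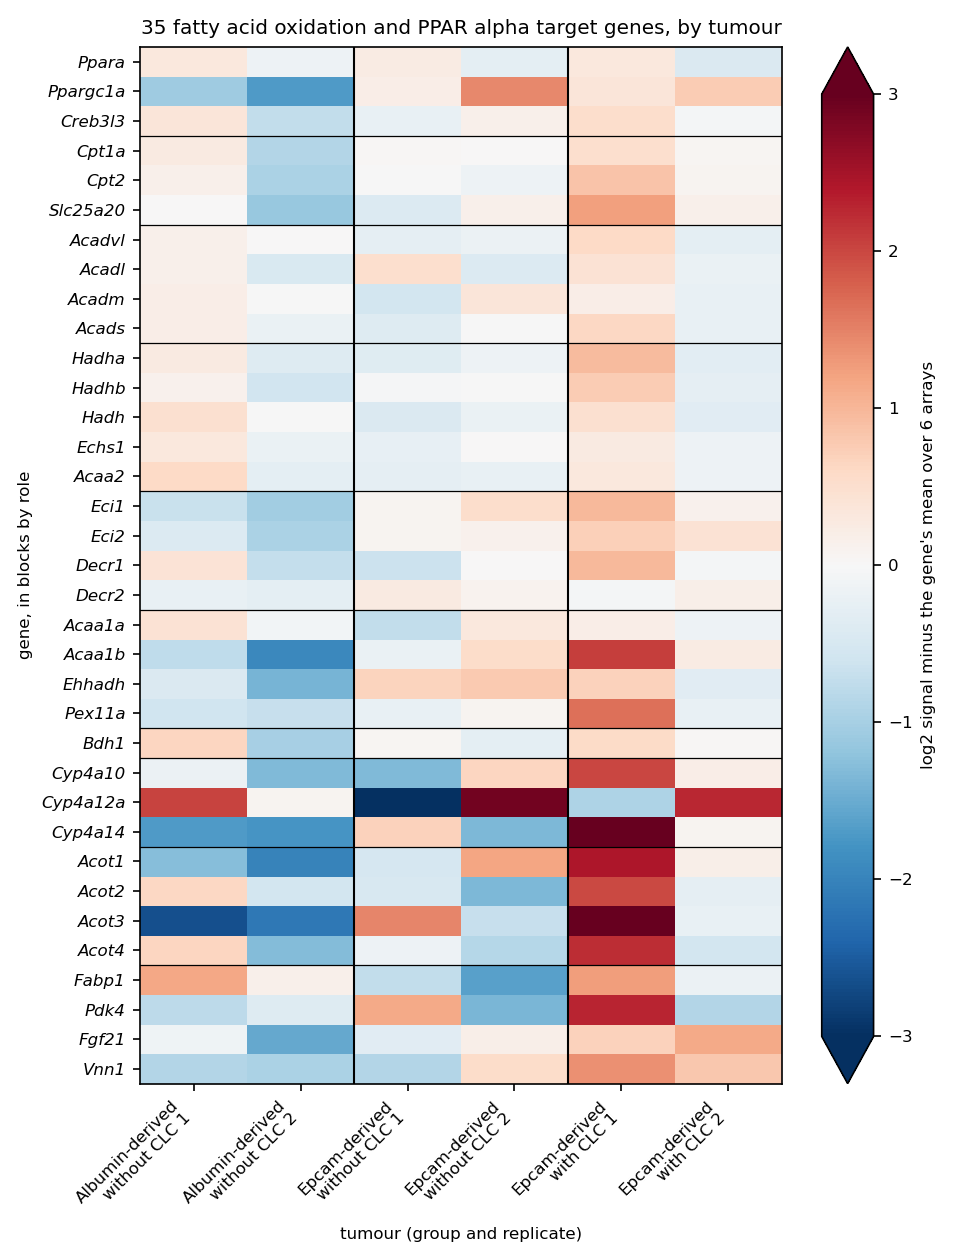
Colour gives each gene's log2 signal in 1 tumour minus that gene's mean over the 6 tumours, with genes in blocks by role (vertical axis) and 1 column per tumour in 3 groups (horizontal axis); colours beyond 3 in size are drawn at the end of the scale. CLC-bearing replicate 1 was highest for 22 of the 35 genes, and Albumin-derived replicate 2 was lowest for 23.

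The first comparison sets the CLC-bearing against the CLC-free tumours, which share line, diet and tamoxifen. The mean was higher in the CLC-bearing tumours for 31 of 35 members, with a median difference of 0.47 (log2), where 43.2% of all features were higher and their median was -0.06. The omega-hydroxylases had a median of 2.37, the thioesterases 1.47, and the group of Fabp1, Pdk4, Fgf21 and Vnn1 1.14. The first of these is the value of Cyp4a14, the member whose direction the filter favoured. Without CLC-bearing replicate 1 the 3 medians were 0.55, -0.10 and 1.00. The regulators had a median of -0.05. In 8 members both CLC-bearing tumours lay above both CLC-free ones, against 10.3% of all features, and in 0 members the reverse held, against 19.8% of features. Those 8 were Cpt1a, Cpt2, Acaa2, Eci2, Acot2, Fabp1, Fgf21 and Vnn1. Without CLC-bearing replicate 1, 16 members were higher, 19 were lower, and the median was -0.02. The comparison within slide 2, which leaves out the same tumour, gave the same median. Without CLC-bearing replicate 2 the median was 0.81.

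The second comparison sets the CLC-free against the Albumin-derived tumours. Of the 35 members, 21 were higher in the CLC-free tumours and 14 were lower, and the median difference was 0.20, where 53.5% of all features were higher and their median was 0.06. The peroxisomal genes had the highest median of any role, at 1.05, followed by the thioesterases at 0.91 and the auxiliary enzymes for unsaturated chains at 0.61. The mitochondrial acyl-CoA dehydrogenases and the later mitochondrial steps had medians of -0.20 and -0.19. In 10 members both CLC-free tumours lay above both Albumin-derived ones, against 30.4% of all features, and in 3 they lay below, against 24.8%. The count of 10 is near its background, and the count of 3 is below it. The 10 were Ppargc1a, Eci1, Eci2, Decr2, Acaa1b, Ehhadh, Pex11a, Cyp4a14, Acot1 and Acot3, and the 3 were Acadvl, Hadh and Fabp1. For Cyp4a14, 3 of the 4 signals compared were not well above background, so its order among them is not a measured one. Without Albumin-derived replicate 2 the median was -0.23 with 13 members higher, and without replicate 1 it was 0.62 with 28 higher. With the authors' own scaling, which moved the median of all features to 0.37, 29 members were higher and their median was 0.52. The 2 groups lay on different slides, and only the CLC-bearing pair, which spans both, links them. With slide as a block, which rests on that pair, 32 members were higher with a median of 1.06, and 0 features passed. The slide term of this fit is the gap between the 2 CLC-bearing tumours, whose median over the members was 0.85. Slide and tumour therefore cannot be told apart in it, and the share of all features that were higher is not given here. In that fit Acaa1b differed by 3.35, Ehhadh by 2.66, Acot1 by 4.23, Acot3 by 7.19, Hadh by 0.25 and Fabp1 by -0.40.

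The third comparison sets the CLC-bearing tumours against the Albumin-derived tumours. The members were higher in 27 of 35 cases and lower in 8, with a median of 0.61, where 49.3% of all features were higher and their median was -0.01. In 14 members both tumours with CLC lay above both Albumin-derived tumours, against 23.8% of all features, and in 0 they lay below, against 27% of features. The 14 comprised the 10 just listed together with Slc25a20, Cyp4a10, Fgf21 and Vnn1. Under quantile normalization and with the authors' scaling, 34 members were higher. The authors' scaling also raised the median of all features, so that part of this rise is shared by all features. The share of all features that were higher under these settings is not given here. The 9 members with an unadjusted p under 0.05 were all higher in the CLC-bearing tumours. Of all features at that threshold, 2175 were higher and 2208 lower. Cyp4a14, whose direction the filter on dim probes favoured, is among these 9 members and among the 14. Within slide 1, where replicate 1 is the only tumour with CLC, the median was 1.13, and without that tumour it was 0.23. Leaving out Albumin-derived replicate 1 gave a median of 1.17 with 35 members higher, and leaving out replicate 2 gave 0.19 with 24 higher. Over both Epcam-derived groups together, the members had a median of 0.38 against the Albumin-derived tumours, with 25 higher, where 52.3% of all features were higher. In 10 members the 4 Epcam-derived tumours all lay above both Albumin-derived tumours, against 17.6% of all features, and in 0 members below, against 18.2%. Cyp4a14 is among these 10 too, although it was well above background on only 3 of the 6 arrays. The members' median was -0.07 without Albumin-derived replicate 2, with 16 higher, and 1.06 with slide as a block, with 33 higher. The slide term again rests on the gap between the CLC-bearing tumours.

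**Figure D2:**
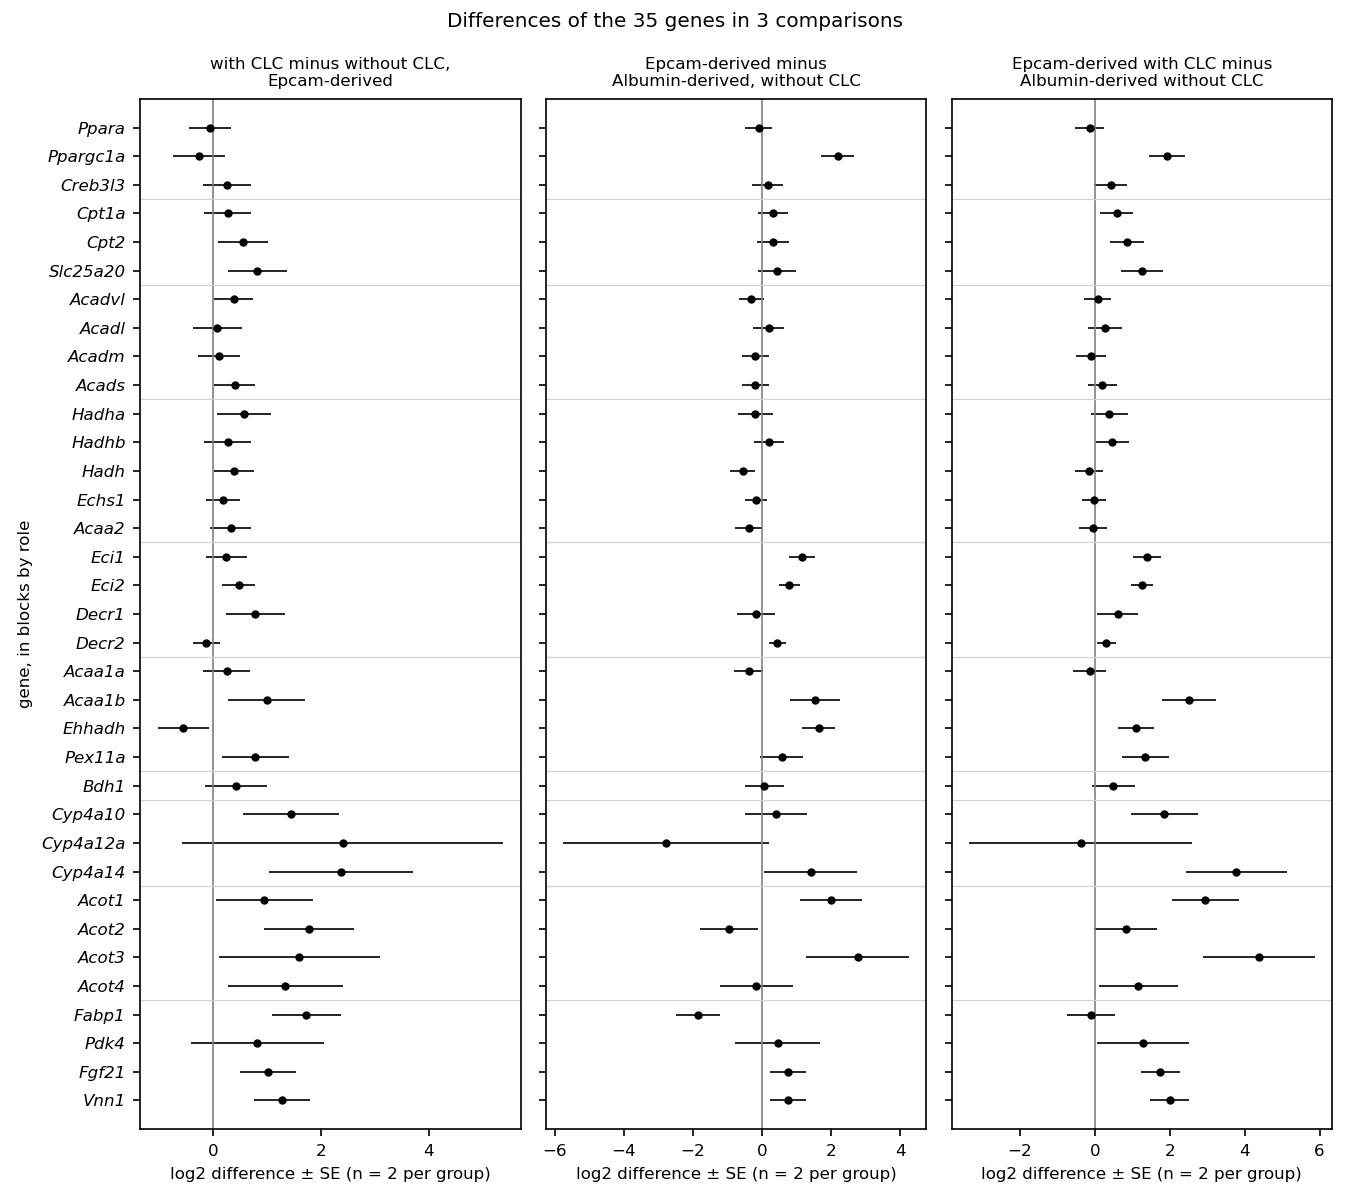
Points give the log2 difference of the group means for each of the 35 genes (vertical axis, in blocks by role) and bars its standard error from limma, with 2 tumours per group, in 3 comparisons (1 panel each; horizontal axes differ in range). Ppargc1a, Eci1, Eci2, Ehhadh and Acaa1b lie well to the right of 0 in both comparisons with the Albumin-derived tumours, while the 4 acyl-CoA dehydrogenases lie between -0.31 and 0.40; no gene passed the adjusted threshold.

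Among the regulators, Ppara itself, the receptor's own gene, was nearly level. Its signal was 5.18 and 4.70 in the Albumin-derived pair, 5.12 and 4.58 in the CLC-free pair and 5.18 and 4.42 in the CLC-bearing pair. In each group replicate 1 was the higher tumour, and the 3 groups overlapped. The differences were -0.09 ± 0.39 (log2, SE, n = 2) for CLC-free against Albumin-derived tumours and -0.05 ± 0.39 for CLC-bearing against CLC-free tumours. A second, dimmer probe of Ppara gave 0.39 and -0.28.

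Ppargc1a encodes the coactivator PGC-1 alpha, which raises mitochondrial biogenesis and assists PPAR alpha. It was at -2.30 and -2.94 in the Albumin-derived pair, -1.03 and 0.19 in the CLC-free pair and -0.87 and -0.49 in the CLC-bearing pair. All 4 Epcam-derived tumours lay above both Albumin-derived tumours, and the groups with and without CLC overlapped. The CLC-free tumours exceeded the Albumin-derived ones by 2.19 ± 0.48 (log2, SE, n = 2; limma adjusted p = 0.116), which is 4.58-fold, and those with CLC by 1.94 ± 0.48 (adjusted p = 0.171). Its other probe gave 2.67 and 2.73, and with normexp background correction the differences were 1.21 and 1.07. Creb3l3, a liver transcription factor of fasting that is released from the endoplasmic reticulum, ranged from 4.61 in Albumin-derived replicate 2 to 5.87 in CLC-bearing replicate 1, and its groups overlapped in every comparison.

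The carnitine shuttle carries long acyl chains into mitochondria. Slc25a20, the exchanger of the inner membrane, was at 0.41 and -0.72 in the Albumin-derived pair, -0.01 and 0.57 in the CLC-free pair and 1.65 and 0.55 in the CLC-bearing pair. CLC-bearing replicate 1 was the highest tumour and Albumin-derived replicate 2 the lowest. The difference of CLC-bearing against CLC-free tumours was 0.82 ± 0.55, and against the Albumin-derived tumours it was 1.26 ± 0.55 (log2, SE, n = 2). Cpt1a, the regulated entry enzyme, and Cpt2, its partner on the inside, had the same highest and lowest tumours. Their differences of CLC-bearing against CLC-free tumours were 0.27 ± 0.44 and 0.55 ± 0.46, and without CLC-bearing replicate 1 that of Cpt2 was 0.18.

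The 4 mitochondrial acyl-CoA dehydrogenases start each round of oxidation and divide the chain lengths among them, from very long (Acadvl) over long (Acadl) and medium (Acadm) to short (Acads). Their differences lay between -0.31 and 0.40 in the 3 comparisons. Acads was at 3.69 and 3.30 in the Albumin-derived pair, 3.12 and 3.48 in the CLC-free pair and 4.12 and 3.28 in the CLC-bearing pair. All 3 groups overlapped. Its difference of CLC-bearing against CLC-free tumours was 0.40 ± 0.38 and was -0.02 without CLC-bearing replicate 1. Acadvl was at 6.12 and 5.97 in the Albumin-derived tumours and 5.69 and 5.79 in the CLC-free pair, which did not overlap, and its difference was -0.31 ± 0.36.

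The later mitochondrial steps are run by the trifunctional protein (Hadha and Hadhb), the short-chain hydratase Echs1, the short-chain hydroxyacyl-CoA dehydrogenase Hadh and the thiolase Acaa2. Hadha was at 1.36 and 0.70 in the Albumin-derived pair, 0.72 and 0.95 in the CLC-free pair and 2.05 and 0.77 in the CLC-bearing pair. Only CLC-bearing replicate 1 stood above the range of the other groups. Its difference of CLC-bearing against CLC-free tumours was 0.58 ± 0.50 and was -0.07 without that tumour. Hadhb, its partner subunit, reached its highest signal, 5.43, in the same tumour and had a difference of 0.27 ± 0.44. Hadh was lower in both CLC-free tumours, at 4.11 and 4.34, than in the Albumin-derived pair, at 5.02 and 4.53, a difference of -0.56 ± 0.37.

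Chains with double bonds need isomerases and reductases besides the standard steps, and for both isomerases the Albumin-derived group stood apart. Eci1, the mitochondrial enoyl-CoA isomerase, was at 3.91 and 3.54 in the Albumin-derived pair, 4.66 and 5.09 in the CLC-free pair and 5.54 and 4.70 in the CLC-bearing pair. Each Epcam-derived tumour lay above both Albumin-derived tumours. The differences from the Albumin-derived group were 1.15 ± 0.38 without CLC (log2, SE, n = 2; limma adjusted p = 0.199) and 1.39 ± 0.38 with CLC (adjusted p = 0.198), or 2.22-fold and 2.63-fold.

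Eci2, an isomerase of peroxisomes and mitochondria, was singled out after its values were seen, as were the further members given in full below beyond 1 per role. It was at 4.59 and 4.05 in the Albumin-derived pair, 5.09 and 5.13 in the CLC-free pair and 5.73 and 5.44 in the CLC-bearing pair. The 3 groups did not overlap. Its difference with CLC from the Albumin-derived group was 1.26 ± 0.30 (limma adjusted p = 0.157), and between the Epcam-derived groups it was 0.47 ± 0.30. Its second probe gave 1.06 and 0.74. For the CLC-free tumours against the Albumin-derived group the first probe gave 0.79 ± 0.30 and the second only 0.32. Decr1, the mitochondrial dienoyl-CoA reductase, overlapped in every comparison, and Decr2, its peroxisomal counterpart, differed from the Albumin-derived group by 0.44 ± 0.25 without CLC and 0.31 ± 0.25 with it.

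In peroxisomes, Acaa1b, a thiolase, was at 3.28 and 2.12 in the Albumin-derived pair, 3.85 and 4.60 in the CLC-free pair and 6.13 and 4.30 in the CLC-bearing pair. Every Epcam-derived tumour lay above the Albumin-derived ones. The differences from them were 1.53 ± 0.72 without CLC and 2.51 ± 0.72 with CLC (log2, SE, n = 2; limma adjusted p = 0.303 and 0.210). The near-identical Acaa1a, whose probes can share signal with it, overlapped in every comparison at -0.39 ± 0.43 and -0.14 ± 0.43, whereas its second probe gave 0.37 and 1.1, the opposite direction in both. The pair of thiolases therefore cannot be assigned with certainty.

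Ehhadh, the bifunctional enzyme that performs the middle steps in peroxisomes, was at 2.52 and 1.55 in the Albumin-derived pair, 3.62 and 3.74 in the CLC-free pair and 3.64 and 2.62 in the CLC-bearing pair. CLC-bearing replicate 2 lay near Albumin-derived replicate 1, and the other 3 Epcam-derived tumours lay between 3.62 and 3.74. Against the Albumin-derived group the differences were 1.64 ± 0.48 without CLC and 1.09 ± 0.48 with CLC (limma adjusted p = 0.172 and 0.346), or 3.13-fold and 2.13-fold. Ehhadh was 1 of 4 members lower with CLC than without, with a difference of -0.55 ± 0.48. Pex11a, which drives the division of peroxisomes, was at 7.25 in CLC-bearing replicate 1 and between 4.91 and 5.68 in the other 5 tumours.

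**Figure D3:**
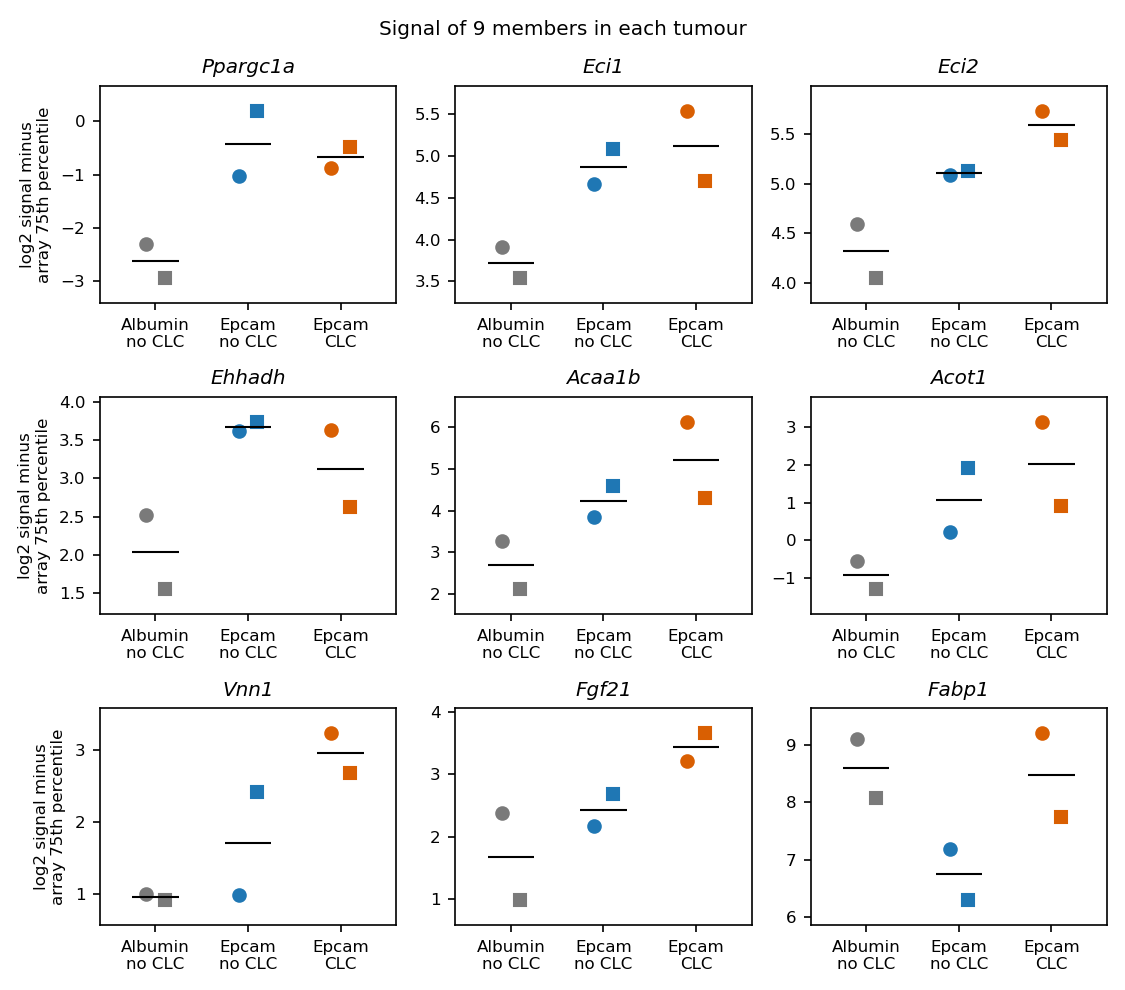
Each panel gives the log2 signal of 1 gene minus the array's 75th percentile (vertical axis, own range per panel) in the 3 groups (horizontal axis), with replicate 1 as a circle, replicate 2 as a square and the group mean as a line. All 4 Epcam-derived tumours lie above both Albumin-derived tumours for Ppargc1a, Eci1, Eci2, Ehhadh, Acaa1b and Acot1, and the Fabp1 signal is lowest in the CLC-free tumours, at 7.19 and 6.30.

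Bdh1, which interconverts the main ketone bodies, was at 5.05 and 3.41 in the Albumin-derived pair, 4.46 and 4.12 in the CLC-free pair and 4.98 and 4.45 in the CLC-bearing pair. The spread between the Albumin-derived tumours covered all other values. The differences from the Albumin-derived group were 0.07 ± 0.57 without and 0.49 ± 0.57 with CLC (log2, SE, n = 2).

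The Cyp4a enzymes hydroxylate the far end of a fatty acid and are classic marks of PPAR alpha activity in mouse liver. They belong to a family of related sequences, so each probe's identity is uncertain. Cyp4a14 was not well above background in either Albumin-derived tumour or in CLC-free replicate 2, was at -4.23 in CLC-free replicate 1 and at -0.90 and -4.84 in the tumours with CLC. The mean of the tumours with CLC exceeded that of the Albumin-derived ones at least 3.43-fold, a bound that sets dim probes at the lowest signal well above background. It is a bound on the mean of -0.90 and -4.84 and not on each tumour, and the filter on dim probes favoured its direction. The limma difference without that bound was 3.78 ± 1.34 (adjusted p = 0.269). CLC-bearing replicate 1 alone stood well apart from the other tumours, and CLC-bearing replicate 2 lay below CLC-free replicate 1.

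Cyp4a10 was at -0.12 and -1.27 in the Albumin-derived pair, -1.26 and 0.70 in the CLC-free pair and 2.06 and 0.27 in the CLC-bearing pair. It was highest in CLC-bearing replicate 1. The difference between the CLC-free and the Albumin-derived tumours was 0.41 ± 0.89 by this probe and -0.96 by another, so it had no settled direction, and for CLC-bearing against CLC-free tumours they gave 1.45 and 2.28.

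Cyp4a12a had the widest spread of all members. It was at 3.98 and 2.04 in the Albumin-derived pair, -4.38 and 4.84 in the CLC-free pair and 1.04 and 4.22 in the CLC-bearing pair. The low tumours were CLC-free replicate 1 and CLC-bearing replicate 1, and the replicates of the group without CLC differed by -9.22. Its difference of CLC-bearing against CLC-free tumours was 2.40 ± 2.98, within the spread of the replicates. Cyp4a12a is known to be more abundant in livers of male than of female mice, so genes of the sex chromosomes were listed after its values were seen. Eif2s3y, a gene of the Y chromosome, was at 1.47 and 1.01 in the Albumin-derived pair, -7.39 and 1.26 in the CLC-free pair and -6.02 and 1.09 in the CLC-bearing pair.

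Kdm5d, also Y-linked, was not well above background in the same 2 tumours, replicate 1 of each Epcam-derived group. Uty, another, ran from -3.13 to -1.73 in 5 tumours and was at -7.43, not well above background, in CLC-free replicate 1. Ddx3y was not well above background in these 2 tumours and in Albumin-derived replicate 2. Xist, the RNA that coats the inactive X chromosome, was at -0.95 and -0.08 in these 2 tumours and at -3.11 in Albumin-derived replicate 1, and was not well above background in the other 3. The same 2 tumours were the 2 highest of the 6 for 4 of the 35 members, Cyp4a14, Acot3, Pdk4 and Acadl, against 7.75% of all features, and the 2 lowest for Cyp4a12a alone, against 7.04%. CLC-bearing replicate 1, which held the highest signal for 22 of the 35 members, is 1 of these 2 tumours. Neither Albumin-derived tumour had low Eif2s3y, so this trait was uneven in the comparisons with them. Leaving out CLC-bearing replicate 1 also changes its balance between the Epcam-derived groups. The part of sex-chromosome genes in the values of the members was not tested.

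**Figure D4:**
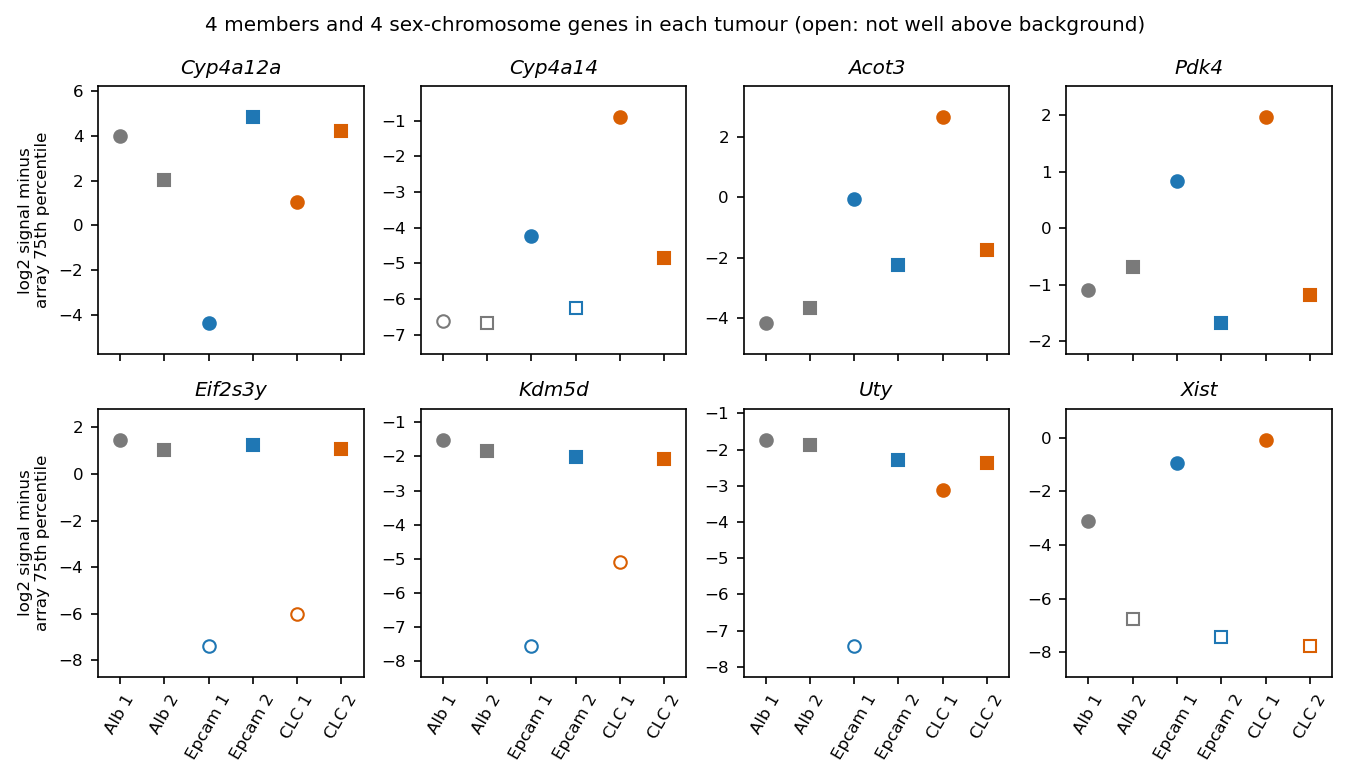
Each panel gives the log2 signal of 1 gene minus the array's 75th percentile (vertical axis, own range per panel) in each of the 6 tumours (horizontal axis: Alb is Albumin-derived, Epcam is Epcam-derived without CLC, CLC is Epcam-derived with CLC); circles are replicate 1, squares replicate 2, and open symbols were not well above background. Replicate 1 of each Epcam-derived group has the lowest Cyp4a12a and Eif2s3y signals and the highest Cyp4a14, Acot3, Pdk4 and Xist signals.

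Acyl-CoA thioesterases release free fatty acid and coenzyme A, Acot1 in the cytosol, Acot2 in mitochondria and Acot3 and Acot4 in peroxisomes. Their genes are neighbours of related sequence, so their probes are uncertain in identity too. Acot3 was at -4.18 and -3.68 in the Albumin-derived pair, -0.07 and -2.24 in the CLC-free pair and 2.66 and -1.76 in the CLC-bearing pair. Every Epcam-derived tumour lay above both Albumin-derived tumours. The difference from them was 4.38 ± 1.49 with CLC and 2.77 ± 1.49 without (log2, SE, n = 2; limma adjusted p = 0.259 and 0.354), and without replicate 1 of the respective Epcam-derived group it was 2.16 and 1.69. The tumours with CLC differed from those without by 1.60 ± 1.49, and by -0.61 without CLC-bearing replicate 1.

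Acot1 was at -0.55 and -1.29 in the Albumin-derived pair, 0.22 and 1.92 in the CLC-free pair and 3.14 and 0.91 in the CLC-bearing pair. The Epcam-derived tumours were again all above the Albumin-derived ones, by 2.00 ± 0.90 without CLC and 2.95 ± 0.90 with CLC. Acot2 and Acot4 followed another order, with both highest in CLC-bearing replicate 1, at 3.23 and 1.48. The 4 thioesterases had a median difference of 1.47 for CLC-bearing against CLC-free tumours, and all 4 were highest in CLC-bearing replicate 1. Without that tumour the median was -0.10, with 1 of 4 higher.

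Of the other targets, Vnn1, an enzyme on the cell surface that splits pantetheine, was at 1.01 and 0.92 in the Albumin-derived pair, 0.99 and 2.42 in the CLC-free pair and 3.24 and 2.69 in the CLC-bearing pair. Both tumours with CLC lay above the other 4. The difference was 2.00 ± 0.52 from the Albumin-derived group (log2, SE, n = 2; limma adjusted p = 0.178) and 1.27 ± 0.52 from the CLC-free tumours (adjusted p = 0.999). Without CLC-bearing replicate 1 they were 1.73 and 0.99. Fgf21, the liver hormone of fasting, was at 2.38 and 0.99 in the Albumin-derived pair, 2.17 and 2.69 in the CLC-free pair and 3.22 and 3.66 in the CLC-bearing pair. Here too both tumours with CLC were the highest, but replicate 2 exceeded replicate 1. The difference of CLC-bearing against CLC-free tumours was 1.01 ± 0.52, and without CLC-bearing replicate 1 it was 1.23.

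Fabp1, the fatty acid carrier of the hepatocyte cytosol, ran in another order. Its signal was 9.10 and 8.08 in the Albumin-derived pair, 7.19 and 6.30 in the CLC-free pair and 9.20 and 7.75 in the CLC-bearing pair. Both tumours without CLC were the lowest, and the tumours with CLC overlapped the Albumin-derived ones. The CLC-free tumours differed from the Albumin-derived ones by -1.85 ± 0.64 (log2, SE, n = 2; limma adjusted p = 0.207). The difference of CLC-bearing against CLC-free tumours, 1.73 ± 0.64 (adjusted p = 0.999), was the only one among members with an unadjusted p under 0.05 in that comparison, and it was 1.01 without CLC-bearing replicate 1. Pdk4, which blocks pyruvate dehydrogenase and so spares glucose, was at -1.09 and -0.69 in the Albumin-derived pair, 0.83 and -1.69 in the CLC-free pair and 1.97 and -1.19 in the CLC-bearing pair. The 3 groups overlapped, and its difference of CLC-bearing against CLC-free tumours was 0.82 ± 1.23.

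Promoter sequence was searched because many members had their highest signal in the same tumour and the receptor they share binds a known direct repeat. RefSeq promoters of build GRCm38.p6, from 250 bases before to 50 after a gene's start, were at hand for 29 of the 35 members. The repeat searched was AGGTCANAGGTCA, where N is any base, on both strands with up to 2 mismatches at the 12 other positions. It matched in 5 of 29 members (17.2%) and in 1190 of 27025 genes (4.4%). Because the members were listed partly as known targets of this receptor, the larger share among them says nothing about these tumours. With up to 1 mismatch it matched in Fabp1 alone among the members (3.45%) and in 0.644% of genes, and with none in 0 members and 13 genes. The motif TGACGTCA, the full cyclic AMP response element, which shares the letters TGAC or GTCA with the repeat, was found in 0 of 29 members and 2.03% of genes. The matches were in Fabp1, Creb3l3, Echs1, Acot4 and, past the start and not printed, Slc25a20. They are printed 5′ to 3′ on the gene's strand with the match in capitals, because they show what the letters look like in the member with the closest match and in 3 others.
Fabp1 (plus strand, chr6:71199800-71199836): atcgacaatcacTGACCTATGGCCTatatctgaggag
Creb3l3 (minus strand, chr10:81092776-81092812): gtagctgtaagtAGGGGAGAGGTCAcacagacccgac
Echs1 (minus strand, chr7:140116480-140116516): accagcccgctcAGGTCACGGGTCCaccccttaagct
Acot4 (plus strand, chr12:84038354-84038378): agccccgaagcaTGACCTTTGGCCG

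The Fabp1 match, on the strand opposite to the gene and ending 54 bases before the start, had 1 mismatch, and the other 3 had 2. Of the members with a match, Fabp1 ranged from 6.30 to 9.20 over the 6 tumours and Acot4 from -2.04 to 1.48. Slc25a20 ranged from -0.72 to 1.65, Creb3l3 from 4.61 to 5.87 and Echs1 from 4.33 to 4.90. Of Ppargc1a, Eci1, Eci2, Ehhadh, Acot1, Acot3 and Fgf21, none held a match within 2 mismatches in this window, which says only that these letters are absent there.

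Other genes of the pathway, from lists made for this report with earlier results of these data known, gave the following. Of 20 other PPAR alpha targets, 19 were tested and 0 passed. In the CLC-bearing tumours 18 were higher than in the CLC-free ones, with a median of 0.83, against 43.2% of all features. In the CLC-free tumours 14 were higher than in the Albumin-derived ones, with a median of 0.54, against 53.5% of all features. The median signal of the list was 5.48 and 3.90 in the CLC-bearing pair and 3.39 and 2.66 in the CLC-free pair, so CLC-bearing replicate 1 stood out here too. Plin5, which ties lipid droplets to mitochondria, was at 1.39 and 0.41 in the Albumin-derived pair, 5.28 and 4.13 in the CLC-free pair and 5.48 and 4.38 in the CLC-bearing pair. The groups with and without CLC overlapped and both lay far above the Albumin-derived tumours, by 3.80 ± 0.61 and 4.03 ± 0.61 (log2, SE, n = 2; limma adjusted p = 0.0784 without and 0.0960 with CLC), or 14.0-fold and 16.3-fold. Cidec, a lipid droplet protein, averaged 5.48 ± 2.15 (SD, n = 2) in the CLC-bearing pair and lay between -0.99 and 1.22 in the other 4 tumours, and the CLC-bearing exceeded the CLC-free tumours by 4.31 (limma adjusted p = 0.999). Txnip, an inhibitor of thioredoxin, differed by 1.60 ± 0.40 with CLC from the Albumin-derived group. Adipocytes also express Plin5 and Cidec, and their defining markers Adipoq and Plin1 were not well above background in any tumour. The summed adipocyte markers, of which 3 of 7 were well above background in all 6 tumours, lay between 0.29 and 0.53 in the Albumin-derived pair, 1.55 and 2.59 in those without CLC and 0.29 and 0.31 with CLC. Single markers went different ways. Cfd, the adipocyte protease adipsin, was at -2.92 and -4.53 in the CLC-bearing pair and not well above background in the other 4 tumours. The CLC-bearing tumours are also those in which Cidec was high. Cfd passed the filter on dim probes only through that pair, so its direction was favoured by the filter. The mean of the CLC-bearing pair exceeded that of the CLC-free pair at least 3.37-fold, and the limma difference was 3.71 ± 0.55 (adjusted p = 0.728). Adrb3, an adrenergic receptor of adipocytes, was at 0.99 and 2.33 in the CLC-free pair and between -2.64 and -1.07 in the other 4 tumours. The part of adipocytes in the values of Plin5 and Cidec was not tested.

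Uptake and activation genes, 13 tested, had medians of -0.09 for CLC-bearing against CLC-free tumours and 0.11 for CLC-free against Albumin-derived tumours. Among them the fatty acid transporter Cd36 was at 0.40 and 0.33 in the Albumin-derived tumours and between 1.53 and 3.26 in the Epcam-derived ones, which exceeded them by 2.02 ± 0.62 without CLC and 2.46 ± 0.62 with CLC (limma adjusted p = 0.181 and 0.171). The medium-chain activating enzyme Acsm3 differed by 2.06 ± 0.43 and the carnitine transporter Slc22a5 by 0.72 ± 0.35 without CLC. Macrophages also express Cd36, and their summed markers were 5.35 and 5.74 in the Albumin-derived pair, 5.70 and 6.39 without CLC and 7.05 and 6.17 with CLC, with 7 of 8 well above background in all 6 tumours. The part of macrophages in these values was not tested.

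Of the 18 other mitochondrial oxidation genes, 14 were higher with than without CLC (median 0.35) and 8 were higher in the CLC-free than in the Albumin-derived tumours (median -0.09). The shares of all features were 43.2% and 53.5%. Their median signal was 3.71 and 2.62 in the CLC-bearing pair and 2.75 and 2.86 in the CLC-free pair, so only CLC-bearing replicate 1 lay above the CLC-free tumours. The 3 with the smallest p were Crat, the carnitine acetyltransferase, at 1.33 ± 0.51 with CLC against the Albumin-derived tumours, Etfb, a subunit of the electron transfer flavoprotein, at -0.88 ± 0.40 and Acadsb, a dehydrogenase of branched chains, at -0.88 ± 0.41. Of the 16 other peroxisomal genes, 11 and 6 were higher in the same 2 comparisons, with medians of 0.13 and -0.13. Acox2 and Phyh, both of branched-chain oxidation, and Crot, the carnitine octanoyltransferase, differed by -0.58 ± 0.35, -0.69 ± 0.27 and -1.45 ± 0.53 between the CLC-free and the Albumin-derived tumours. The 7 ketogenesis genes were all higher with than without CLC, by 0.05 to 0.47, and 2 of them were higher in the CLC-free than in the Albumin-derived tumours. In these lists 0 genes passed the test in any comparison.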

How the data were processed

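RNA of 6 tumours was measured on 1-colour Agilent arrays, from 0.1 µg each per the labels' protocols. Agilent Feature Extraction 11.5.1.1 made the spot intensity (per the file headers, a background-subtracted processed signal), and the authors' deposited value table is that intensity times 1 factor per array (1.64 to 2.42), whose origin is unknown. The table is linear and not centred, with column medians of 55.0 to 80.0. Control and outlier spots were left out, log2 was taken, and each array's 75th percentile was subtracted. Probes that were well above background in both tumours of any group (34777 of 56605) were kept, and 5 of these were dropped for an outlier spot. Accessions were named through RefSeq (32994 probes), and the probe with the highest mean stood for a gene. limma 3.58.1 in R 4.3.3 fitted 3 group coefficients to all 6 arrays (two-sided, Benjamini-Hochberg over 27399 features, threshold 0.05). On data simulated for CLC-bearing against CLC-free tumours, it recovered 0% of 200 features changed 2-fold and 0% of those changed 4-fold. Of 200 features changed 8-fold it recovered 46%. The ± values are standard errors, and the number of arrays limits the precision. Members and lists were chosen with earlier results of these data known. Per-tumour values are given for the regulators and for the member of each role with the largest difference, and at most 3 genes of another list are named, those with the smallest p; Adipoq, Plin1 and the sex-chromosome genes were named beyond this rule after values were seen. Alternatives covered scaling, background correction, filters, probe choice, slide, replicate block, trend and left-out arrays. The deposited files hold no mean signal, so normexp used the median signal. Replicate numbers did not pair tumours.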

Additional observations from a re-analysis of the deposited data

Results flagged for a closer look

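Each member was checked for 1 tumour far from the other 3 among the 4 Epcam-derived tumours, CLC-bearing and CLC-free alike, by the gap to the nearest tumour over the whole range. Of 35 members, 4 exceeded Dixon's 95% critical value. The nominal rate of about 1 in 20 is for tumours of 1 group, whereas these 4 tumours come from 2 groups. The share of all features that exceeded the value is not given here, so no excess can be read from this count. Acadvl was at 6.56 in CLC-bearing replicate 1, with the nearest tumour at 5.79 (ratio 0.873). Cpt1a was at 5.12 in the same tumour, nearest 4.67 (0.884), and Pex11a at 7.25, nearest 5.68 (0.830). Ehhadh was at 2.62 in CLC-bearing replicate 2, with the nearest tumour at 3.62 (0.892).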

How the results depend on the processing

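Of 18 alternatives, each comparison could be given 16 to 18, and 0 members passed the threshold under any of them. A comparison within 1 slide was not possible for CLC-free against Albumin-derived tumours, which share no slide.

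Between CLC-bearing and CLC-free tumours, slide as a block and the comparison within 1 slide both leave CLC-bearing replicate 2 alone, and gave a median of -0.02. They turned Acadvl to -0.06, Acads to -0.02, Hadha to -0.07, Hadh to -0.01, Pex11a to -0.16, Acot1 to -0.17, Acot3 to -0.61 and Acot4 to -0.04. With 1 tumour left out the median ran from -0.02 to 0.81, Acadvl from -0.06 to 0.83, Acads from -0.02 to 0.82, Hadha from -0.07 to 1.22, Hadh from -0.01 to 0.79, Pex11a from -0.16 to 1.72, Acot1 from -0.17 to 2.07, Acot3 from -0.61 to 3.81 and Acot4 from -0.04 to 2.72.

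Between CLC-free and Albumin-derived tumours the features past the threshold, 67 as reported, numbered 112 with the array median as scale, 135 with normexp, 116 with quantile normalization, 129 with the authors' table, 1 with no filter, 32 with probes well above background on all 6 arrays, 110 with probes averaged, 0 with slide as a block and 16 with only these groups fitted. Slide as a block, whose slide term is the gap between the CLC-bearing tumours, gave a median of 1.06. It turned Hadh to 0.25, Acaa2 to 0.08 and Acot2 to 1.30, and normexp turned Cyp4a14 to -0.24. With 1 tumour left out there were 0 to 16 features, the median ran from -0.23 to 0.62 and Acaa2 from -0.83 to 0.05.

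Between CLC-bearing and Albumin-derived tumours the 17 features became 40, 66 and 68 with the array median, normexp and quantile normalization, 39 with an intensity trend, 1 with no filter, and 0 with slide as a block, within 1 slide or with only these groups. Slide as a block and the comparison within 1 slide gave a median of 1.13. With 1 tumour left out there were 0 features, the median ran from 0.19 to 1.17, Hadhb from -0.05 to 1.00, Acot4 from -0.22 to 2.54 and Pdk4 from -0.30 to 2.86. For all Epcam-derived tumours the 223 features became 368 with normexp, 696 with the authors' table, 7 with no filter, 131 on all 6 arrays, 338 with a trend and 0 with slide as a block, which gave a median of 1.06 and turned Hadh to 0.24 and Fabp1 to 0.10. With 1 tumour left out there were 0 to 53 features, the median ran from -0.07 to 0.83 and Cpt1a from -0.14 to 1.03. The cause of these shifts was not tested.

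Replicate numbers did not pair the tumours, with correlations of same-numbered deviations of -0.16, 0.06 and 0.23. With a replicate block, 11 features passed for CLC-free, 0 for CLC-bearing and 67 for all Epcam-derived tumours against the Albumin-derived ones, and 0 between the Epcam-derived groups. The authors' scaling moved the median of all features by more than 0.1, to 0.37, 0.31 and 0.35 in the comparisons with Albumin-derived tumours, and normexp moved it to -0.16, -0.12 and -0.14. With 2 arrays a group, only large changes were within reach.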

Other observations

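Among partners and coregulators of PPAR alpha, the citric acid cycle and peroxisome biogenesis, 0 genes passed the test (limma). Of 22 partners tested, 10 were higher in CLC-bearing than in CLC-free tumours (median -0.02) and 8 were higher in the CLC-free than in the Albumin-derived tumours (median -0.10). Klb, the coreceptor through which Fgf21 acts, differed by -1.32 ± 0.36 (log2, SE, n = 2) in the CLC-bearing against the Albumin-derived tumours, the direction opposite to Fgf21, at 1.75 ± 0.52. Sirt3, the mitochondrial deacetylase, and Ppard, the receptor PPAR delta, differed by 1.09 ± 0.34 and 1.04 ± 0.31 between the CLC-free and the Albumin-derived tumours (adjusted p = 0.183 and 0.174).

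Of 14 citric acid cycle genes, 9 were higher in CLC-bearing than in CLC-free tumours (median 0.29), and 5 were higher in the CLC-free than in the Albumin-derived tumours (median -0.24). Idh3a, a subunit of isocitrate dehydrogenase, differed by 0.46 ± 0.29 in the latter comparison, the malate dehydrogenase Mdh2 by -0.89 ± 0.34 and the succinyl-CoA ligase subunit Suclg1 by -0.86 ± 0.38. Of 13 peroxisome biogenesis genes, 9 and 5 were higher in these 2 comparisons, and the anchoring protein Pex26 differed by -1.10 ± 0.28 between the CLC-free and the Albumin-derived tumours (adjusted p = 0.145), whereas Pex11a differed by 0.57 ± 0.62. The summed biliary and ductular markers were 2.67 and 5.33 in the Albumin-derived pair, 5.55 and 4.93 in the CLC-free pair and 5.95 and 6.80 in the CLC-bearing pair.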
